A study of Mus musculus with 64 samples.

Results

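The 7 genes that encode the subunits of the NMDA receptor, Grin1, Grin2a, Grin2b, Grin2c, Grin2d, Grin3a and Grin3b, were followed in RNA from the nucleus accumbens (NAc) and prefrontal cortex (PFCx) of mice 2 h after a single drug injection. The members were taken by gene symbol from the 64 deposited isoform tables, which gave 38 transcripts of these 7 genes among 112714 transcripts of 46785 genes. A transcript level is an FPKM value, which corrects read number for transcript length and sequencing depth, and a gene level is the sum of the FPKM of its transcripts. All 7 genes passed the filter on low values (mean of 0.1 FPKM or more in one or both tissues), which kept 37034 genes. Of the 38 transcripts, 33 passed, and 5 did not (the 3 Grin3b transcripts, Grin1-203 and Grin2a-202).

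NMDA receptors are glutamate-gated cation channels that pass calcium and open fully only when the membrane is depolarised. Each channel is a tetramer of obligatory GluN1 subunits, which bind glycine or D-serine, with GluN2 subunits, which bind glutamate, or GluN3 subunits, which bind glycine. In the forebrain they carry synaptic plasticity, GluN2A and GluN2B are the main GluN2 subunits, and ketamine blocks the open channel.

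Adult male C57BL/6N mice received saline, or ketamine 20 mg/kg (an NMDA receptor channel blocker), haloperidol 1 mg/kg or risperidone 0.5 mg/kg (antipsychotics), mianserin 20 mg/kg or venlafaxine 16 mg/kg (antidepressants), or methamphetamine 2 mg/kg (a psychostimulant), by intraperitoneal injection. Haloperidol and risperidone were given in saline with a little hydrochloric acid, which the saline controls are not stated to have received. The PFCx samples were dissected with a needle from slices and joined the cingulate, prelimbic and infralimbic areas with part of the dorsal peduncular cortex. Each tissue had 8 saline libraries and 4 per drug, 64 in all. Whether replicates were separate animals or pools is not stated in the labels, so p-values measure the spread between these samples, which may be partly technical, and the labels do not tie an NAc sample to a PFCx sample of the same mouse.

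The aligned bases behind a library, estimated from read coverage, lay between 1.52 and 3.26 gigabases (median 2.39). The labels name saline sets I and II but tie no drug to either. Drugs were assigned to set I (haloperidol, risperidone, methamphetamine) or set II (ketamine, mianserin, venlafaxine) from the number of transcripts above 0 in their NAc libraries, which was 85287 to 87827 in set I and 107099 to 110556 in set II. PFCx libraries had 108556 to 110852 and did not divide in this way, so own-set values there assume the assignment made from the NAc. Drug results that passed the threshold, and some others, are also given against the 4 saline libraries of the set so assigned. The tissue labels held against markers. Summed FPKM of the striatal projection neuron list (such as Drd1 and Adora2a) was 533 to 725 in NAc saline libraries and 22.2 to 78.8 in PFCx saline libraries, and that of the cortical excitatory list (such as Slc17a7 and Tbr1) was 20.9 to 66.6 and 155 to 200.3.

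The GluN1 gene Grin1 (ENSMUSG00000026959) lies on chromosome 2 at 25291181 to 25319187 of GRCm38 (mm10), minus strand, and has 14 transcripts, 8 of them protein-coding. The coding isoforms differ in 3 cassettes that alter the receptor's protein, and their sequences are shown because they tell the isoforms apart. N1 is an exon of 63 bases (chr2:25311343-25311405) in the extracellular amino-terminal part, known to weaken inhibition of the channel by protons. C1 is an exon (chr2:25294438-25294548) in the intracellular tail, known to carry a signal that retains the protein in the endoplasmic reticulum. C2 is the part of the last exon gained when splicing uses the upstream acceptor, and its coding stretch of 114 bases (chr2:25292371-25292484) is replaced in the other form by a tail that ends in a PDZ-binding motif. The sequences, from the GENCODE vM21 transcripts and read 5′ to 3′ on the minus strand, have the cassette in capitals and 12 flanking transcript bases in lower case.
N1: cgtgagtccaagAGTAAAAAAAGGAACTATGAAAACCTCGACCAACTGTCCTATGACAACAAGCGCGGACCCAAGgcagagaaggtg
C1: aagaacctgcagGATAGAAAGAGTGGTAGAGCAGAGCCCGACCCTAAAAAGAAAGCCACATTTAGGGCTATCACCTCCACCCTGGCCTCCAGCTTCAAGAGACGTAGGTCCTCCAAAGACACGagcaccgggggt
C2: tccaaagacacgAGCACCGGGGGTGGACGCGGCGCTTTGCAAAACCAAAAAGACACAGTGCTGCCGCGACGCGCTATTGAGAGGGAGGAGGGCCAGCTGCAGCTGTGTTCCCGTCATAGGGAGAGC
Grin1-201 holds C1 and C2, Grin1-202 C2 alone, Grin1-203 N1 and C2, Grin1-204 all 3 cassettes, Grin1-205 none, Grin1-206 C1 alone, Grin1-207 N1 alone, and Grin1-208 N1 and C1. Isoforms of 1 gene share most of their reads, so an error in one can pass to the others.

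After saline, Grin1 was at 51.6 FPKM in the lowest NAc library, 55.7 in the median and 60.3 in the highest (56.0 ± 3.26, mean ± SD, n = 8). In the PFCx the lowest, median and highest were 44.97, 51.4 and 58.4 FPKM (51.6 ± 3.88, n = 8). The tissues overlapped, and the difference, NAc minus PFCx, was 0.12 on the log2(FPKM + 1) scale used for every fold below (SE 0.052, 95% interval 0.01 to 0.23), with an adjusted p of 0.0878 in limma. Its direction depended on what was summed and on the scaling. Over protein-coding transcripts alone the difference was -0.09 (adjusted p = 0.279), and after rescaling by the median ratio over genes it was 0.21 (adjusted p = 0.00789) and to the 75th percentile -0.32.

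Protein-coding isoforms made up 42.8 ± 4.61% of the Grin1 sum in the NAc and 49.5 ± 5.03% in the PFCx (n = 8 each; a description, with no test). Grin1-206, the isoform with C1 alone, was at 3.36 to 7.13 FPKM in NAc saline libraries (median 4.77) and 6.67 to 10.7 in PFCx libraries (median 9.05). It was lower in the NAc, with means of 4.81 ± 1.19 and 8.73 ± 1.47 and a log2 difference of -0.76 (SE 0.12, adjusted p = 0.000465), although the ranges met. Grin1-209, a short transcript annotated as non-coding (527 bases, at the 3′ part of the gene), was higher in the NAc, at 9.86 ± 2.99 against 5.18 ± 2.197 FPKM (log2 0.85, SE 0.22, adjusted p = 0.0150). Its interval lies partly inside that of Grin1os, an antisense gene at 25291220 to 25298925 on the plus strand, and whether the counting used strand is not given in the sources used here. Grin1os was at 7.05 ± 1.03 FPKM in NAc and 5.28 ± 0.788 in PFCx saline libraries.

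As a share of the Grin1 sum, Grin1-206 was 8.67 ± 2.52% in NAc and 16.9 ± 2.40% in the PFCx. A two-sided exact permutation test gave p = 0.000311, and 0.0687 after Benjamini-Hochberg adjustment over the 221 shares and comparisons of this kind, so the share did not pass the threshold of 0.05. The isoforms with C1 together were 23.3 ± 3.51% and 29.3 ± 4.09% (exact permutation p = 0.00870, adjusted p = 0.321). Those with N1 were 3.47 ± 2.75% and 6.36 ± 2.30% (exact permutation p = 0.0424, adjusted p = 0.426). Those with C2 were 17.8 ± 2.14% and 17.3 ± 5.38% (exact permutation p = 0.842, adjusted p = 0.923). None of the 221 tests passed, and 19 of the 204 that compared a drug with saline had an unadjusted exact p under 0.05. Grin1-201 and Grin1-205, with and without both tail cassettes, were the leading coding isoforms of the NAc at 14.01 ± 2.54% and 13.4 ± 3.38%, while in the PFCx Grin1-206 led and these were at 12.1 ± 5.58% and 9.16 ± 4.97%. Precision was low for 3 of the 4 isoforms with N1. The lower confidence bound of the deposited FPKM was above 0 in only 12 of 64 libraries for Grin1-203, 16 for Grin1-204 and 13 for Grin1-208.

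**Figure D1:**
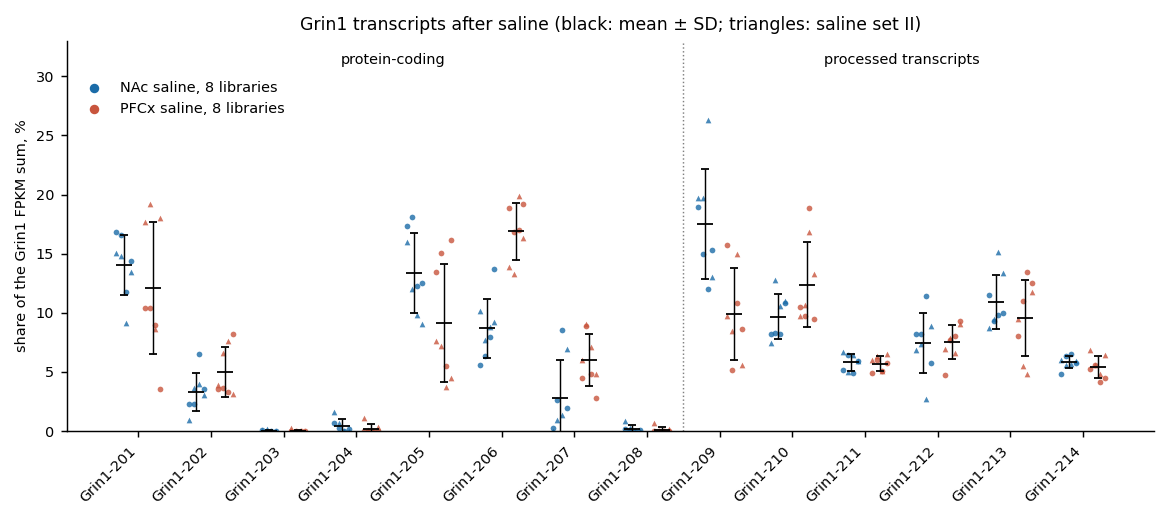
Share of each of the 14 Grin1 transcripts in the Grin1 FPKM sum (y axis, percent) in the 8 NAc (blue) and 8 PFCx (red) saline libraries, with circles for saline set I, triangles for set II and black bars for the mean ± SD. Grin1-206 averages 8.67% in NAc and 16.9% in PFCx, Grin1-209 averages 17.5% and 9.89%, and Grin1-203, Grin1-204 and Grin1-208 lie near 0.

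Of the GluN2 genes, Grin2b (ENSMUSG00000030209, chromosome 6, 135713233 to 136173511, minus strand, 7 transcripts) had the highest level and encodes the subunit with slow decay that dominates early in life. NAc saline libraries ranged from 37.6 to 46.0 FPKM with a median of 40.6 (41.1 ± 2.63, n = 8). PFCx libraries ranged from 46.6 to 58.2 with a median of 52.8 (52.3 ± 4.50, n = 8). Every NAc library lay below every PFCx library, a pattern shown in either direction by 8.5% of all genes tested. The log2 difference was -0.34 (SE 0.056, adjusted p = 0.000209), a fall in the mean of 21.5%. In the PFCx, set I averaged 56.2 and set II 48.4 FPKM, and the tissue difference was -0.48 within set I and -0.20 within set II (adjusted p = 0.000670 and 0.0632).

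Grin2a (ENSMUSG00000059003, chromosome 16, 9567898 to 9995560, minus strand, 6 transcripts) encodes the faster subunit that rises as the forebrain matures. It was at 23.6, 25.0 and 28.2 FPKM in the lowest, median and highest NAc saline libraries (25.3 ± 1.58, n = 8) and at 31.1, 37.6 and 42.4 in the PFCx (37.3 ± 3.28, n = 8). The tissues did not overlap, and the log2 difference was -0.54 (SE 0.057, adjusted p = 1.2e-06), with -0.54 in set I and -0.53 in set II. Over protein-coding transcripts alone it was -0.86. The mean ratio of Grin2b to Grin2a FPKM, both per length and over all transcripts, coding or not, was 1.63 ± 0.0858 in NAc and 1.41 ± 0.124 in the PFCx. The Grin2a sum includes Grin2a-203, Grin2a-204 and Grin2a-205, which have no coding sequence, while nearly all of the Grin2b sum is annotated as coding. Over coding transcripts alone the ratio would therefore be higher in both tissues.

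Grin2c (ENSMUSG00000020734, chromosome 11, 115249169 to 115267243, minus strand, 2 transcripts) encodes a subunit with weak magnesium block, best known from cerebellum and glia. It ranged from 2.08 to 3.38 FPKM in NAc saline libraries (median 2.67, 2.66 ± 0.412) and from 1.84 to 2.43 in PFCx libraries (median 2.24, 2.19 ± 0.191). It was higher in the NAc, with a log2 difference of 0.19 (SE 0.066, adjusted p = 0.0329), but the tissues overlapped. NAc set I averaged 2.97 and set II 2.35 FPKM, and the difference was 0.30 in set I (adjusted p = 0.0149) and 0.09 in set II (adjusted p = 0.483). Rescaling to the 75th percentile turned it to -0.11, and leaving out any of NAc saline I replicates 1 to 4, PFCx saline I replicate 2 or PFCx saline II replicate 4 ended the call (adjusted p 0.0554 to 0.0637).

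Grin2d (ENSMUSG00000002771, chromosome 7, 45831883 to 45870928, minus strand, 2 transcripts) encodes a subunit with slow decay, known in the forebrain from interneurons. It was low, at 0.243, 0.559 and 0.854 FPKM in the lowest, median and highest NAc saline libraries (0.556 ± 0.177) and 0.623, 0.732 and 1.13 in the PFCx (0.785 ± 0.158). The log2 difference was -0.20 (SE 0.073, adjusted p = 0.0413), with overlap. The call ended without any 1 of 9 saline libraries (adjusted p 0.0512 to 0.0778: NAc I 3 and 4, NAc II 2 to 4, PFCx I 2 to 4 and PFCx II 2). It also ended with read coverage scaled to depth in place of FPKM (-0.05, adjusted p = 0.710). The coverage per FPKM of Grin2d, relative to the library's median, was 0.945 in NAc set I and 0.512 in NAc set II (medians of 16 libraries), against 0.565 and 0.593 in the PFCx. For Grin1, Grin2a and Grin2b this ratio stayed between 0.990 and 1.07 in all 4 sets. It moved less than for Grin2d, but did move, for Grin3a (1.04 in NAc set I, 0.867 in NAc set II, 0.922 in PFCx set I and 0.930 in PFCx set II). In the same order it was 0.949, 0.893, 0.839 and 0.860 for Grin2c and 0.908, 0.759, 0.754 and 0.726 for Grin3b. The coding transcript Grin2d-201 alone was lower in the NAc, at 0.378 ± 0.118 against 0.627 ± 0.0867 FPKM (log2 -0.24, SE 0.057, adjusted p = 0.00865).

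The GluN3 genes, whose products bind glycine and lower the calcium permeability of the channel, were at low levels. Grin3a (ENSMUSG00000039579, chromosome 4, 49661611 to 49845744, minus strand, 4 transcripts) ranged from 2.62 to 3.47 FPKM in NAc saline libraries (median 3.18, 3.15 ± 0.281) and from 3.75 to 5.29 in PFCx libraries (median 4.79, 4.68 ± 0.515). No NAc library reached the PFCx range, and the log2 difference was -0.45 (SE 0.061, adjusted p = 2.4e-05), a fall in the mean of 32.8%. Within set I it was -0.50 and within set II -0.40. Grin3b (ENSMUSG00000035745, chromosome 10, 79970715 to 79977190, plus strand, 3 transcripts) reached at most 0.309 FPKM in an NAc saline library and 0.251 in a PFCx library, with medians of 0.105 and 0.197. Its difference of -0.09 did not pass (adjusted p = 0.232), and it was -0.22 in set I (adjusted p = 0.0112) and 0.04 in set II. Precision was low for Grin3b, whose lower confidence bound was above 0 in 23, 0 and 2 of 64 libraries for Grin3b-201, Grin3b-202 and Grin3b-203. Grin3b overlaps Tmem259 on the opposite strand.

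The coding isoforms of Grin3a differ by 60 bases (chr4:49665566-49665625, minus strand), which Grin3a-202 holds and Grin3a-201 lacks, and the stretch is shown because the isoform that holds it was lower in the NAc. Capitals mark the added bases in the GENCODE vM21 transcript.
Grin3a insert: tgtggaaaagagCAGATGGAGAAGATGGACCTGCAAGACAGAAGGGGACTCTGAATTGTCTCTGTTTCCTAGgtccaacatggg
Grin3a-202 was at 0.546 ± 0.439 FPKM in NAc and 1.82 ± 1.00 in the PFCx (log2 -0.85, SE 0.20, adjusted p = 0.0100). Grin3a-201 was at 1.89 ± 0.574 and 1.80 ± 0.878 FPKM (log2 0.11, adjusted p = 0.803). The longer form was 23.3 ± 21.6% of both coding isoforms in the NAc and 49.6 ± 24.3% in the PFCx, given without a test because it was chosen after its values were seen. Single libraries ranged from 0.00966% to 70.4% and from 21.5% to 100.0%.

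In all, 5 of the 7 genes passed the tissue test, 1 higher and 4 lower in the NAc, where 33.9% of all genes tested passed (7.16% higher and 26.8% lower). The median over all genes was -0.10 on the log2 scale, and 0.02 with coverage scaled to depth, where Grin2a, Grin2b and Grin3a were at -0.59, -0.38 and -0.39. Of the 33 transcripts tested, 7 passed, 1 higher and 6 lower in the NAc, where 13.7% of all transcripts passed (4.27% higher and 9.46% lower). Besides those already given, these were Grin2a-206 (9.14 ± 0.821 and 17.5 ± 1.72 FPKM, log2 -0.87, adjusted p = 9.8e-08), Grin2a-201 (4.25 ± 0.831 and 7.51 ± 2.15 FPKM, -0.67, adjusted p = 0.00346) and Grin2b-201 (21.1 ± 0.894 and 30.1 ± 1.16 FPKM, -0.49, adjusted p = 2.8e-07). The libraries of Grin2a-206 and Grin2b-201 did not overlap between tissues, as was the case for 4.28% of all transcripts.

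In whole tissue, fewer cells of a type and less RNA per cell cannot be told apart. Beside the lower GluN2A, GluN2B and GluN3A messages, the general neuron list (Snap25, Rbfox3, Syt1) summed to 279 to 352 FPKM in NAc and 483 to 525 in PFCx saline libraries. Tubb3, also on the list, was absent from the data. Snap25 (means of 197 and 327) and Syt1 (103 and 159) carried this difference, while Rbfox3 went the other way (17.9 and 15.1). The oligodendrocyte list (such as Mbp and Mog) summed to 512 to 703 and 131 to 184. Sums of the astrocyte, microglial, endothelial and interneuron lists overlapped, but interneuron and astrocyte members differed in opposite directions. The interneuron gene Vip (means of 1.25 and 9.13) and the astrocyte gene Aqp4 (4.39 and 6.10) were lower in the NAc, without overlap. Pvalb, Gfap and Aldh1l1 also averaged lower there. Sst (31.9 and 25.6), Npy, Lhx6, Slc1a3 (57.2 and 53.6) and Gja1 averaged higher in the NAc. The part of cell composition in the tissue differences was not tested. The order of levels per length, summed over all transcripts of a gene, was Grin1, Grin2b, Grin2a, Grin3a, Grin2c, Grin2d and Grin3b in the NAc. In the PFCx it was the same save that Grin1 and Grin2b, at 51.6 and 52.3 FPKM, did not differ beyond their spread. In the NAc the ranges of the neighbours Grin3a and Grin2c overlapped, as did those of Grin2d and Grin3b. The gene sums include transcripts annotated without a coding sequence, which made up a larger part of Grin1 than of Grin2b. In saline libraries coding isoforms were 33.1 to 47.1% of the Grin1 sum in NAc and 39.7 to 55.5% in the PFCx. The only Grin2b transcript without a coding sequence, Grin2b-207, averaged 0.154 FPKM over the 64 libraries. Over transcripts annotated as coding, Grin2b therefore stood above Grin1 in both tissues. Some of these Grin2b entries are short, such as Grin2b-206 with 109 coding bases against 4446 in Grin2b-201, so the order over full-length isoforms may differ.

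**Figure D2:**
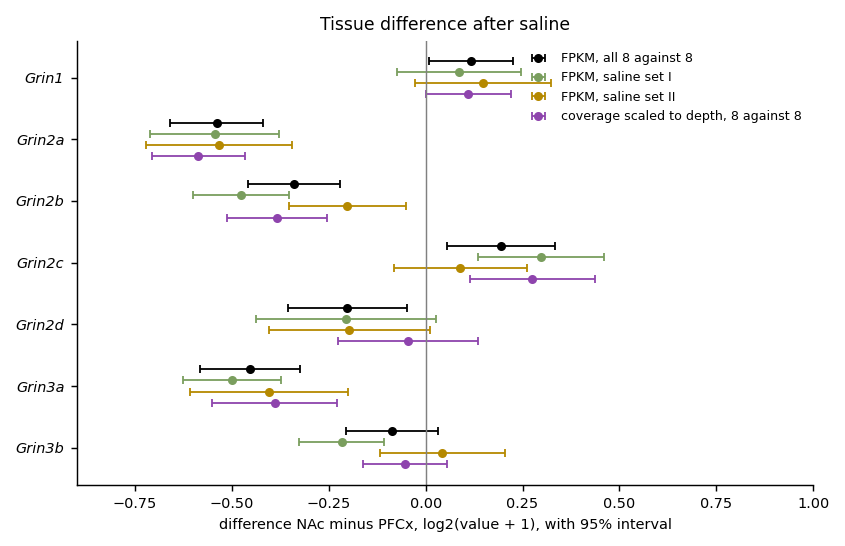
Difference between NAc and PFCx after saline for each gene (x axis, log2(value + 1), NAc minus PFCx), with points for estimates and bars for 95% intervals, from all 8 against 8 libraries, from saline set I or II alone, and from coverage scaled to depth. Grin2a, Grin2b and Grin3a lie left of 0 in all 4 settings, while the Grin2d estimate moves from -0.20 to -0.05 with coverage.

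Among the GluN2 genes, the make-up within a library does not depend on scaling to depth. The sums include transcripts annotated without a coding sequence. For Grin2a these were Grin2a-203, Grin2a-204 and Grin2a-205, with means of 5.23, 3.65 and 4.37 FPKM over the 64 libraries. For Grin2b only Grin2b-207 was of this kind (0.154 FPKM). Over transcripts annotated as coding, the Grin2a share would thus be lower and the Grin2b share higher than given here. Not all of the Grin2b coding entries are full-length. Grin2b-203, Grin2b-204, Grin2b-205 and Grin2b-206 hold 106, 106, 1011 and 109 coding bases, against 4446 in Grin2b-201. Their means over the 64 libraries were 0.426, 0.949, 4.40 and 13.8 FPKM. Grin2a was 36.4 ± 0.951% of the GluN2 sum in NAc libraries and 40.3 ± 2.08% in the PFCx, and the libraries did not overlap. The difference of -3.94 percentage points had p = 0.000155 in a two-sided exact permutation test over 12870 splits and 0.00404 after adjustment over 52 shares and comparisons. Grin2c was 3.83 ± 0.635% and 2.37 ± 0.213% (+1.46 points, without overlap, exact permutation, adjusted p = 0.00404). Grin2b was 59.0 ± 1.60% and 56.5 ± 2.13% (exact permutation, adjusted p = 0.181), and Grin2d was 0.794 ± 0.227% and 0.847 ± 0.141% (adjusted p = 0.833, exact permutation). The difference in the Grin2a share of the GluN2 sum was -2.004 points within set I and -5.87 within set II, and that of Grin2c was 1.99 and 0.933 points. None of these passed within a set (exact permutation, adjusted p = 0.210 and 0.187), where 0.0286 is the smallest unadjusted p that 4 against 4 can give. No share of the GluN2 sum differed between a drug and saline after adjustment (lowest adjusted p = 0.140, exact permutation).

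**Figure D3:**
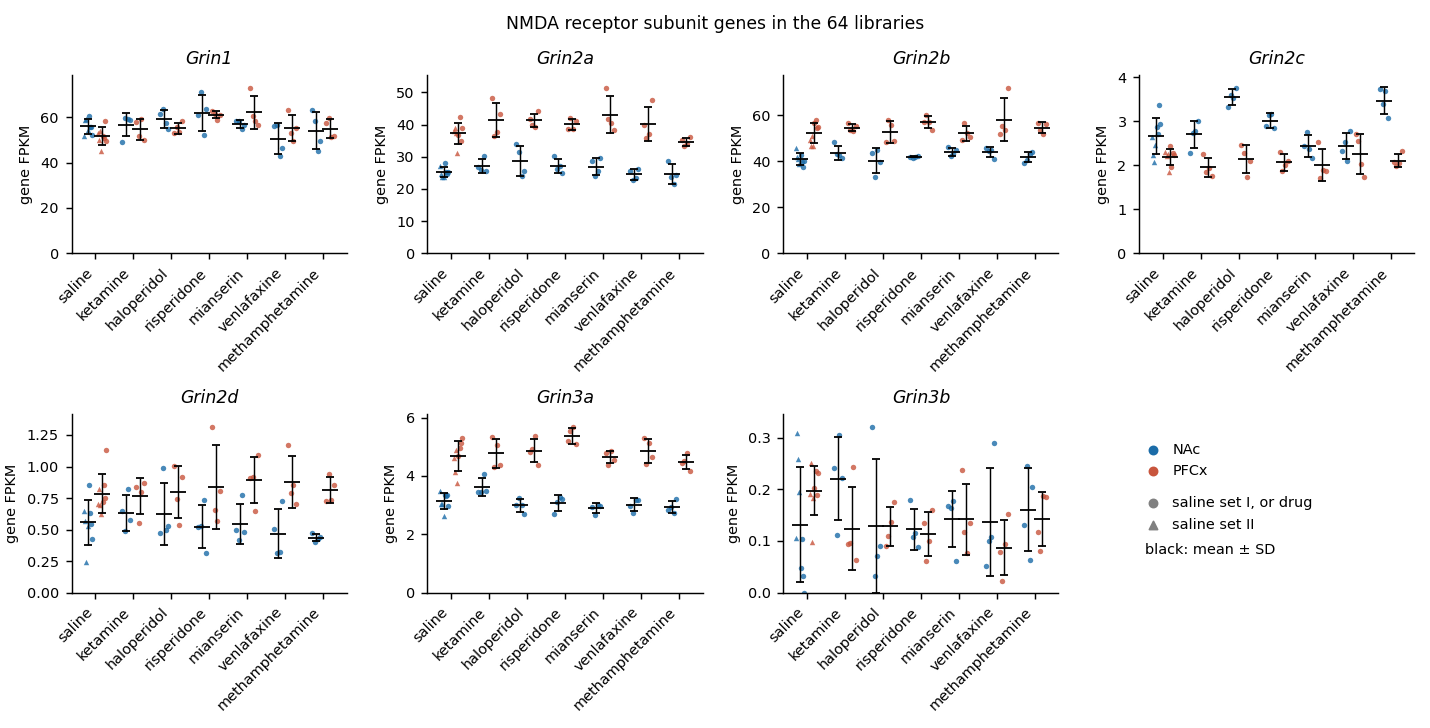
Gene FPKM (y axis, from 0) of the 7 genes in all 64 libraries by treatment, NAc in blue and PFCx in red, with triangles for saline set II and black bars for the mean ± SD (bars are clipped at 0). Grin2a, Grin2b and Grin3a average lower in the NAc under every treatment, and Grin2c stands highest in NAc libraries after haloperidol (3.55) and methamphetamine (3.46).

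Ketamine, the drug that acts on these receptors, changed none of the 7 genes past the threshold in either tissue 2 h after injection. In the NAc all 7 estimates were above 0, with a median of 0.09 on the log2 scale against 0.05 over all genes, 1 had an unadjusted p under 0.05 (Grin3a) and 0 passed in limma, where 1.97% of all genes did. In the PFCx, where the median over all genes was -0.03, 4 of 7 were above 0, none had an unadjusted p under 0.05 and 0 passed, against 0.0162% of all genes. The 95% intervals give the sizes of change that the data leave room for. Beside the NAc estimates, the summed oligodendrocyte list was at 658 to 723 FPKM after ketamine and 512 to 703 after saline. In set II saline it was at 512 to 575. The astrocyte list was at 91.1 to 95.2 and 75.9 to 90.3, without overlap (75.9 to 81.2 in set II saline). The cortical excitatory list was at 42.0 to 72.7 and 20.9 to 66.6 (20.9 to 43.1 in set II saline). The endothelial list was at 10.2 to 11.8 and 11.6 to 13.8 (12.8 to 13.8 in set II saline). For the striatal projection neuron list it was 448 to 635 and 533 to 725 (533 to 725 also in set II saline). Their part in the ketamine results was not tested.

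Grin1 was at 49.3, 59.7, 59.4 and 58.7 FPKM in the NAc ketamine libraries, within the saline range but for the first, and the difference was 0.02 (interval -0.16 to 0.19). In the PFCx it was at 57.9, 51.6, 59.2 and 49.9 (0.08, interval -0.06 to 0.22). Grin2a was at 26.8, 25.8, 30.1 and 25.5 FPKM in NAc (0.09, interval -0.07 to 0.26) and 48.2, 36.6, 37.6 and 43.3 in the PFCx (0.14, interval -0.02 to 0.31). The third Grin1 library and the first and last Grin2a libraries of the PFCx lay above the saline range, as did the third Grin2a library of the NAc. Grin2b was at 48.2, 43.1, 42.7 and 41.3 FPKM in NAc (0.09, interval -0.03 to 0.22) and 56.7, 53.4, 53.4 and 55.4 in the PFCx (0.07, interval -0.08 to 0.22). Grin1, Grin2a and Grin2b gave 0.02, 0.13 and 0.06 in NAc and 0.11, 0.18 and 0.17 in PFCx against the own saline set (adjusted p of 0.298 to 0.986 in limma).

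Grin3a gave the lowest unadjusted p of the 7 genes under ketamine. Its NAc libraries were at 3.45, 3.45, 4.06 and 3.48 FPKM, against 2.62 to 3.47 after saline. The mean was 3.61 ± 0.302, and the log2 difference was 0.15 (interval 0.04 to 0.27, adjusted p = 0.120 in limma), or 0.19 against the own saline set (adjusted p = 0.193). The third library stood above the other 3, and the groups overlapped at their edge. In the PFCx Grin3a was at 5.33, 4.32, 5.07 and 4.37 FPKM, inside the saline range but for the first (0.02, interval -0.11 to 0.16). Grin2c (2.70 ± 0.311 in the NAc, 1.95 ± 0.218 in the PFCx), Grin2d (0.633 ± 0.142 and 0.766 ± 0.144) and Grin3b (0.220 ± 0.0803 and 0.124 ± 0.0809) gave adjusted p-values of 0.371 to 0.980.

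At the transcript level 7 of 33 in NAc and 2 of 33 in PFCx had an unadjusted p under 0.05 with ketamine and 0 passed in limma, where 0.2% and 0.00347% of all transcripts did. The main Grin2a isoform, Grin2a-206, gave 0.23 (SE 0.068, adjusted p = 0.148), and Grin1-206 gave 0.70 (SE 0.26, adjusted p = 0.254). Summed over its protein-coding transcripts, Grin2a was 0.25 above saline in the NAc with an adjusted p of 0.0222 in limma. This sum was chosen after the data were seen, and the share of all genes that passed with it is not given here. Against the own saline set the estimate was again 0.25 and did not pass (adjusted p = 0.0640).

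Across all 6 drugs, the 84 pairs of a member and a drug ranged from -0.15 to 0.32 on the log2 scale. Of these, 10 had an unadjusted p under 0.05 and 1 passed in limma, against 0.75% of all pairs of a gene and a drug. Against the own saline set the range was -0.16 to 0.29, 10 were under 0.05 and 0 passed, against 0.532% of all pairs. The one that passed was Grin2c after haloperidol in the NAc, where 0.721% of all genes passed. The libraries were at 3.33, 3.59, 3.52 and 3.76 FPKM, against 2.08 to 3.38 after saline, so the lowest fell within the top of the saline range. The difference was 0.32 (SE 0.073, adjusted p = 0.0315), and 0.20 against the own saline set (adjusted p = 0.511). Leaving out any 1 haloperidol library or any 1 library of saline set II ended the call (adjusted p 0.0539 to 0.117), and rescaling to the 75th percentile turned the estimate to -0.08. Beside this result, the summed astrocyte list was at 88.4 to 97.6 FPKM after haloperidol and 75.9 to 90.3 after saline (84.5 to 90.3 in set I), and the oligodendrocyte list at 646 to 712 and 512 to 703 (617 to 703 in set I). The cortical excitatory list was at 58.5 to 79.3 and 20.9 to 66.6 (48.6 to 66.6 in set I). The endothelial list, at 10.3 to 11.3 and 11.6 to 13.8, did not overlap. Their part in the result was not tested.

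Methamphetamine gave a Grin2c estimate of the same sign in the NAc, with 3.73, 3.38, 3.68 and 3.07 FPKM (3.46 ± 0.306, log2 0.29, adjusted p = 0.117, own saline set 0.17). After the other set I drug, risperidone, it averaged 3.01 ± 0.168. The set II drugs mianserin and venlafaxine both averaged 2.43 FPKM, next to 2.35 for their own saline set. With the F test over the 6 drugs, Grin2c (adjusted p = 0.000743) and Grin3a (0.0417) passed in the NAc, where 36.9% of all genes did, and none passed in the PFCx, where 3.34% did. Against the own saline set 1.63% of genes passed, and Grin2c and Grin3a were at 0.354 and 0.219. All haloperidol libraries are of set I and the 8 controls join both sets, so in that comparison part of the difference can come from the sets and cannot be told apart from the drug.

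In the PFCx no member passed for any of the 6 drugs (6 of 42 unadjusted p under 0.05), where 0.285% of all pairs of a gene and a drug did. The nearest was Grin1 after mianserin, with libraries at 73.0, 60.4, 58.5 and 56.7 FPKM against 44.97 to 58.4 after saline. Of the 4, 1 lay inside the saline range and the first stood far above. The difference was 0.26 (SE 0.070, adjusted p = 0.0958) and 0.29 against the own saline set (adjusted p = 0.0620). After risperidone Grin1 was at 62.8, 61.5, 58.9 and 61.1 FPKM, all above saline, and the libraries of 1.53% of genes did not overlap with saline in one direction or the other. The difference was 0.24 (adjusted p = 0.114), passed without PFCx saline I replicate 3 (adjusted p = 0.0493) and without no other single library, and was 0.21 against the own saline set (adjusted p = 0.600). Over protein-coding transcripts alone, Grin1 was 0.09 above saline after mianserin (adjusted p = 0.789), and after risperidone the interval of the difference was -0.16 to 0.16 (adjusted p = 0.992).

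Over the 6 drugs, group means of Grin2a ran from 24.5 to 28.8 FPKM in NAc (25.3 after saline) and from 34.6 to 43.0 in PFCx (37.3). Those of Grin2b ran from 40.3 to 44.1 (41.1) and from 52.2 to 58.2 (52.3), and those of Grin3a from 2.89 to 3.61 (3.15) and from 4.48 to 5.38 (4.68). Grin2d means ran from 0.436 to 0.633 FPKM (0.556 after saline) and from 0.766 to 0.891 (0.785). Grin3b means ran from 0.123 to 0.220 FPKM in NAc, with 0.132 after saline. In PFCx all 6 Grin3b means, 0.0869 to 0.143 FPKM, lay below the 0.198 ± 0.0477 of saline (n = 8). The lowest was after venlafaxine (0.0869 ± 0.0530, log2 -0.14, adjusted p = 0.490 in limma), and none passed. A test of whether a drug effect differed between tissues passed for 0 of 42 pairs in limma (6 with an unadjusted p under 0.05, lowest adjusted p = 0.190, Grin3b with ketamine), where 0.0873% of all pairs passed.

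**Figure D4:**
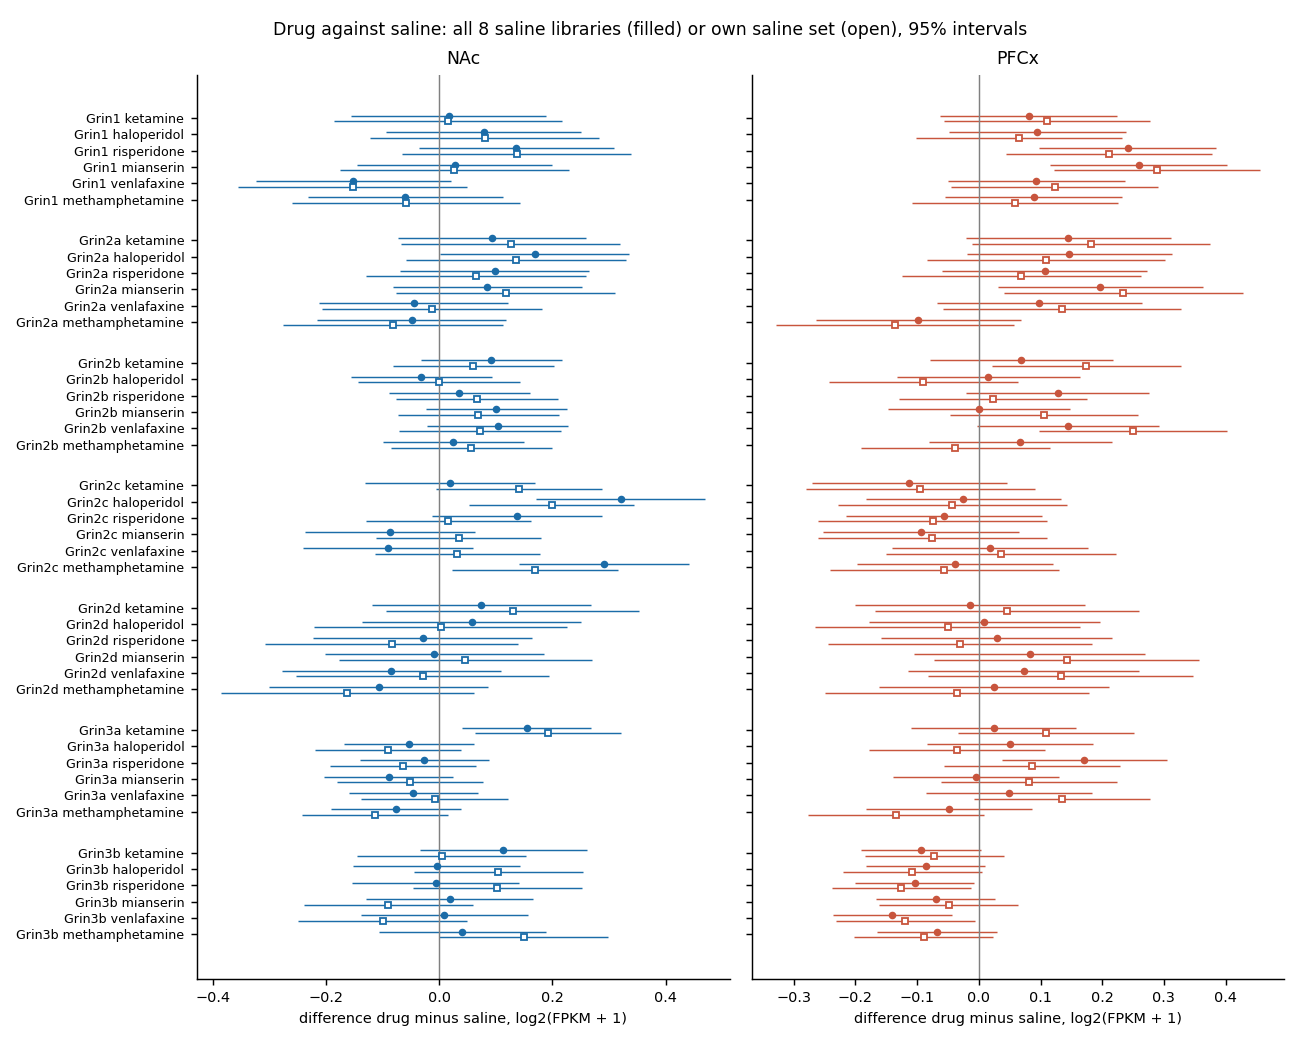
Difference between each drug and saline for each of the 7 genes (x axis, log2(FPKM + 1), drug minus saline) in the NAc (left) and PFCx (right), with filled circles against all 8 saline libraries, open squares against the own saline set and bars for 95% intervals. The largest is Grin2c after haloperidol in the NAc, 0.32 against all saline and 0.20 against its own set.

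Among single transcripts, 3 of 396 pairs with a drug passed in limma and 51 had an unadjusted p under 0.05, where 0.15% of all pairs of a transcript and a drug passed. Against the own saline set 0 passed and 32 were under 0.05, where 0.2% passed. All 3 were Grin1-211 or Grin1-214 after mianserin. Both are annotated as processed transcripts without a coding sequence at the 5′ end of Grin1, and most of their bases lie outside the exons of the coding isoforms: 2354 of 3024 bases (77.8%) in Grin1-211 and 2564 of 3437 (74.6%) in Grin1-214, whose last exon (25310801 to 25313604) holds the N1 exon within it. Neither reaches the interval of the antisense gene Grin1os.

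Grin1-214 was at 4.07, 4.40, 4.15 and 3.89 FPKM in NAc mianserin libraries, all above the saline range of 2.89 to 3.66. The difference was 0.27 (SE 0.061, adjusted p = 0.0370), where 0.504% of all transcripts passed and 1.37% did not overlap. In the PFCx it was at 5.91, 3.90, 4.13 and 3.33 against 2.21 to 3.63, with overlap (0.48, SE 0.10, adjusted p = 0.0296). Grin1-211 was at 4.18, 4.14, 4.02 and 4.49 FPKM in the PFCx, all above 2.55 to 3.1997 after saline (0.41, SE 0.081, adjusted p = 0.0152), where 0.351% of transcripts passed and 1.13% did not overlap. In the NAc it was at 4.27, 4.21, 4.72 and 4.70, all above 2.76 to 3.84, and 0.37 did not pass (adjusted p = 0.0549).

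These calls were close to the threshold. Against the own saline set the adjusted p was 0.174 for Grin1-214 and 0.349 for Grin1-211 in NAc, and 0.123 and 0.0524 in PFCx libraries. Leaving out any 1 NAc mianserin library, or NAc saline I replicate 1 or 4 or II replicate 1, ended the NAc call of Grin1-214 (adjusted p 0.0529 to 0.119). The PFCx call of Grin1-214 ended without mianserin replicate 1, 2 or 3, PFCx saline I replicate 3 or 4, or II replicate 3 (0.0535 to 0.228). That of Grin1-211 ended without mianserin replicate 1, 2 or 4 (0.0517 to 0.0730). Beside the PFCx result, the neuron list was at 548 ± 12.9 FPKM after mianserin and 501 ± 17.2 after saline, and the oligodendrocyte list at 185 ± 11.6 and 150.1 ± 19.8. Their part in the result was not tested.

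As a share of the Grin1 sum after mianserin in the NAc, Grin1-211 was 7.86 ± 0.694% against 5.81 ± 0.709% and Grin1-214 7.24 ± 0.362% against 5.84 ± 0.539%. Both had p = 0.00202, the smallest that the exact permutation test of 4 against 8 can give, and 0.149 after adjustment. Risperidone gave estimates of the same sign for both transcripts in both tissues, 0.30 and 0.24 in NAc and 0.25 and 0.16 in the PFCx, with adjusted p-values of 0.128 to 0.632. Methamphetamine gave -0.25 for Grin1-214 in the NAc (adjusted p = 0.170).

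**Figure D5:**
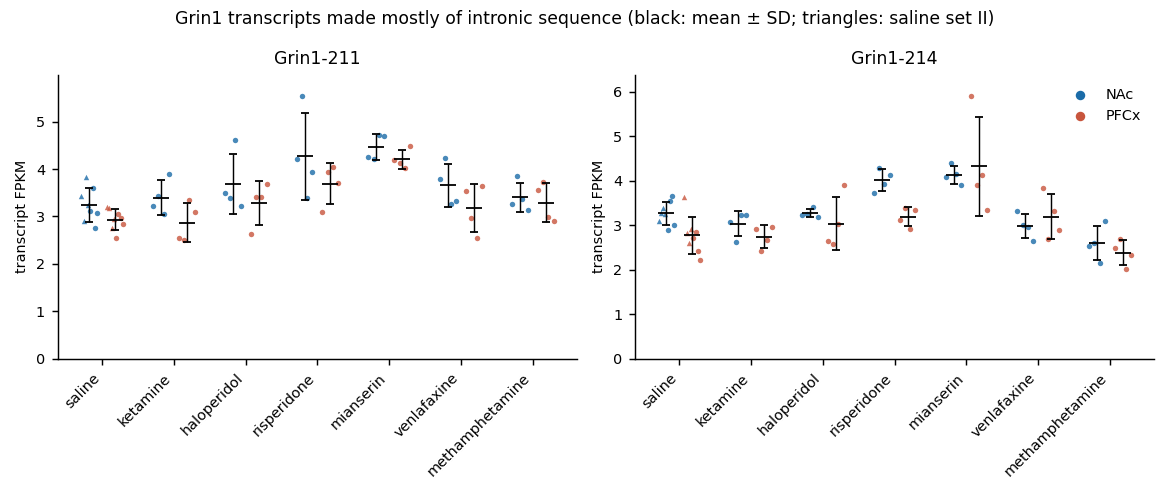
Transcript FPKM (y axis, from 0) of Grin1-211 (left) and Grin1-214 (right) in every library by treatment, NAc in blue and PFCx in red, with triangles for saline set II and black bars for the mean ± SD. After mianserin all NAc libraries of both transcripts and all PFCx libraries of Grin1-211 lie above saline.

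Proteins that hold the receptor at the synapse, phosphorylate it or supply its co-agonist were followed as a list of 51 genes, of which 50 were tested. In the tissue comparison 30 of 50 passed, 10 higher and 20 lower in the NAc, with a median of -0.12 on the log2 scale, beside 33.9% of all genes (7.16% higher and 26.8% lower) and their median of -0.10. By class, 5 scaffolds were higher and 6 lower of 20, 2 kinases, phosphatases and calcium signalling genes higher and 8 lower of 14, none of 7 co-agonist genes higher and 3 lower, and none of 6 extracellular and trafficking partners higher and 3 lower. All 3 genes of the remaining class were higher in the NAc.

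Ptpn5, the striatum-enriched phosphatase that dephosphorylates GluN2B, was at 43.5 ± 4.45 FPKM in NAc and 16.4 ± 1.21 in the PFCx (log2 1.35, adjusted p = 5.1e-11). Actn2, an actin-binding protein that binds the GluN1 tail, was at 7.65 ± 0.787 and 2.40 ± 0.322 (1.35, adjusted p = 1.03e-10). Neto1, an auxiliary subunit, was at 18.05 ± 1.52 and 9.35 ± 0.522 (0.88). Lower in the NAc was the adaptor Apba1, at 7.52 ± 0.653 and 15.9 ± 1.03 (-0.99).

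With drugs, 4 pairs of a partner gene and a drug passed in the NAc (1 of 50 genes with ketamine, 2 with risperidone and 1 with venlafaxine, against 1.97%, 0.729% and 1.83% of all genes) and none in the PFCx. The scaffold gene Dlg4, which encodes PSD-95, was at 139 ± 11.7 FPKM after ketamine (n = 4) against 115 ± 12.4 after saline (n = 8, log2 0.28, adjusted p = 0.0445), and 0.24 against its own saline set (adjusted p = 0.235). Dlgap4, another postsynaptic scaffold, rose after risperidone (34.0 ± 1.57 against 26.5 ± 3.23, 0.36, adjusted p = 0.0350) and fell after venlafaxine (21.0 ± 2.17, -0.32, adjusted p = 0.0465). Dao, the D-amino acid oxidase that breaks down D-serine, fell after risperidone (0.245 ± 0.0572 against 0.490 ± 0.106 FPKM, -0.26, adjusted p = 0.0346). Against the own saline sets none of these 4 passed, and 1 other pair did, the kinase gene Camk2d after ketamine in the NAc (1 of 50 genes there). Over the 6 drugs in both tissues, 0.532% of all pairs of a gene and a drug passed against the own saline set. Camk2d was at 15.8 ± 1.45 against 10.51 ± 1.05 FPKM (n = 4 each, log2 0.54, adjusted p = 0.0333 in limma). Against all saline it was 0.31 (adjusted p = 0.195), and it is named here after its values were seen.

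Genes whose library-to-library deviations were most like those of a member were listed as a description, over the 32 libraries of a tissue, which share depth and dissection. For Grin1 these were Vps39 in the NAc (Pearson r = 0.78) and Myl4 in the PFCx (0.76). Among those most like Grin2a were Gm8241 (0.74) in the NAc and Ppm1h and Rab15 (0.84 each) in the PFCx. Grin2b was most like Rab43 (0.67) and Mir181a-1 (0.71), Grin2c most like Eif3d (0.75) and Pim3 (0.81), and Grin3a most like Tspan14 (0.70) and Cdh12 (0.74). Among themselves the members correlated between -0.46 and 0.51.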

How the data were processed

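RNA was depleted of ribosomal RNA and sequenced single-end on an Ion platform. The authors aligned reads with TopHat2 (version 2.0.1) and then Tmap and estimated transcripts with Cufflinks 2.2.1 on mm10. They deposited 1 table per library with FPKM, its confidence bounds and status, and read coverage (a signal not scaled to depth). The tables hold no read counts, and use of strand is not given in the sources used here.

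FPKM of the transcripts of a gene were summed. Genes and transcripts with a mean of at least 0.1 in either tissue entered limma 3.58.1 (R 4.3.3) on log2(FPKM + 1), with Benjamini-Hochberg adjustment over all features tested and a threshold of 0.05. Such a fold understates the change of low genes. Depth was estimated from coverage divided by FPKM, as the median over transcripts with 2000 or more bases and 5 or more FPKM. Shares were compared with two-sided exact permutation tests over all splits, computed in Python 3.11.15 with numpy 2.4.6. The fit was tested on simulated data. Exons and transcript names came from GENCODE vM21, which lacks 1 Grin2d transcript. Groups came from the labels, doses from the study's methods, and sample sets from the saline labels and the number of transcripts above 0. The text names all members, the 3 genes most like each, up to 6 partner genes for tissue and up to 4 for a drug by lowest adjusted p. Some of the genes this rule names are not reported here. The 7 members, the partner and marker lists and the tests were chosen with earlier results of these data known. Alternatives were another pseudocount (0.1), other filters (none, or a mean of at least 1), rescaling to the 75th percentile or by the median ratio, a mean-variance trend, coverage in place of FPKM, protein-coding transcripts, saline of 1 set, the replicate number as a block and leaving out each library. Coverage, the median ratio, protein-coding sums and the combinations with the own saline set were chosen after seeing the data.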

Additional observations from a re-analysis of the deposited data

Results flagged for a closer look

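In 98 groups of a member, tissue and treatment, 6 single libraries stood apart from their group by Dixon's criterion, and chance alone flags about 1 group in 20. Grin1 was at 49.3 FPKM in NAc ketamine replicate 1, with 58.7 to 59.7 in the other 3 libraries. Grin3a was at 4.06 FPKM in NAc ketamine replicate 3, with 3.45 to 3.48 in the others. Grin2d was at 0.992 FPKM in NAc haloperidol replicate 2 (others 0.472 to 0.529) and at 1.13 in PFCx saline I replicate 4 (others 0.623 to 0.849). Grin3b was at 0.0616 FPKM in NAc mianserin replicate 4 (others 0.164 to 0.177) and at 0.0971 in PFCx saline II replicate 3 (others 0.183 to 0.251).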

How the results depend on the processing

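The lower Grin2a, Grin2b and Grin3a in the NAc kept their direction under every alternative run, and passed under all but Grin2b with saline set II alone (adjusted p = 0.0632). The count of genes past the tissue test, 5, became 2 with saline set II alone and 3 to 5 without single libraries (3 without NAc saline I replicate 3 or 4 or PFCx saline I replicate 2). A pseudocount of 0.1 ended the call of Grin2c (adjusted p = 0.0505), and coverage (-0.05, adjusted p = 0.710) and the mean-variance trend (adjusted p = 0.0523) that of Grin2d. The median ratio ended that of Grin2d (adjusted p = 0.0952) and made Grin1 pass (0.21, adjusted p = 0.00789), and saline set I alone ended that of Grin2d (adjusted p = 0.142) and made Grin3b pass. The count of transcripts, 7, became 4 with either saline set alone and was 7 to 8 without single libraries. The 1 NAc pair of a gene and a drug became 0 with a pseudocount of 0.1 or the own saline set (also with coverage or protein-coding sums), 2 with protein-coding sums, 12 after rescaling to the 75th percentile, and 0 to 2 without single libraries (0 without any haloperidol or saline II library, 2 without saline I replicate 3). In the PFCx the 0 pairs became 1 with either rescaling and 0 to 1 without single libraries (1 without saline I replicate 3). Genes past the F test in the NAc, 2, became 1 with a pseudocount of 0.1, a mean of at least 1, the trend or the median ratio, 6 with the 75th percentile, and 0 with the own saline set (also with coverage or protein-coding sums). That count was 1 to 2 without single libraries (1 without any ketamine library, haloperidol 1 or 3, methamphetamine 1, 2 or 3, mianserin 1, 2 or 4, risperidone 2 or venlafaxine 1). With the 75th percentile the F test passed for 1 gene in the PFCx in place of 0, and the difference of drug effects between tissues for 2 pairs in place of 0. The 1 NAc pair of a transcript and a drug became 0 with a pseudocount of 0.1, the trend or the own saline set (also with coverage), 2 with no filter, a mean of at least 1 or the median ratio, and 16 with the 75th percentile. It was 0 to 3 without single libraries (0 without any mianserin library or saline I replicate 1 or 4, 2 without saline II replicate 2 or venlafaxine replicate 2, 3 without saline II replicate 3). The 2 PFCx pairs became 0 with a pseudocount of 0.1 or the own saline set (also with coverage), and 0 to 2 without single libraries (0 without mianserin replicate 1 or 2, 1 without mianserin 3 or 4, saline I 3 or 4 or saline II 3). Of the Grin1 shares, 0 to 1 passed without single libraries (1 without NAc saline I replicate 4). The Grin2a share of the GluN2 sum, -3.94 points, was -2.004 in set I and -5.87 in set II, where the smallest p of 4 against 4 is 0.0286, and -4.30 to -3.44 without single libraries.

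The 75th percentile moved with the number of genes above 0, with a median of 4.60 FPKM in NAc set I and 2.23 in NAc set II. Rescaling to it turned the tissue difference of Grin2c to -0.11 and, in the NAc, Grin2c after haloperidol to -0.080, after mianserin to 0.28 and after venlafaxine to 0.30, Grin2a after venlafaxine to 0.50 and Grin3a after venlafaxine to 0.36.

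Groups share replicate numbers, and the labels do not say what a number marks. Within a set, same-numbered samples had a mean correlation of 0.173 in NAc (38 of 48 pairs over 0.1) and 0.248 in PFCx (36 of 48), against -0.0327 (54 of 336) and -0.0313 (76 of 336) for different numbers. Same-numbered samples of a set thus tended to deviate together, but not every pair did, and the numbers were not taken to pair the samples. Between the tissues, 0 of 8 same-numbered saline pairs were over 0.1. Blocking on the number gave 0 gene pairs, 1 gene by the F test and 0 transcript pairs in the NAc, and ended the tissue call of Grin2d (adjusted p = 0.0680). For the Grin2a share of the GluN2 sum, -3.94 points, a different test was used. It paired the NAc and PFCx saline libraries by set and number, which no label does, and flipped the signs of the 8 differences. The share no longer passed (exact sign-flip test, adjusted p = 0.140), at the smallest p that 8 pairs can give (0.00781). The own saline set with the replicate number as a block gave 0 NAc and 1 PFCx gene pairs, 0 NAc genes by the F test, and 0 NAc and 1 PFCx transcript pairs. The cause of these changes was not tested. FPKM without counts give no counting error, so what depth limits can be read only from the spread between libraries and from the deposited bounds. Besides Grin1-203, Grin1-204 and Grin1-208, the bounds were wide for the Grin3b transcripts and for the Grin2d transcript that GENCODE vM21 lacks. For the latter the lower bound was above 0 in 10 of 64 libraries.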
